A study of Mus musculus with 24 samples.

Results

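The 10 core circadian clock genes followed here were the rows of the deposited table whose symbol is Arntl, Clock, Npas2, Cry1, Cry2, Dbp, Ciart, Bhlhe40, Nr1d1 or Nr1d2, and all 10 were found among 15582 genes. They were measured by RNA sequencing in livers of male B6C3F1 mice, a hybrid strain, labelled as 4 weeks old. The mice had 0, 1, 2 or 3.5 g/L dichloroacetic acid (DCA), a disinfection by-product and a known inhibitor of the kinases that switch off pyruvate dehydrogenase, in their drinking water for 6 days, and the animals given 0 g/L were the controls. Each dose had 6 libraries, each from roughly 20 mg of snap-frozen tissue taken across lobes, which gave 24 in all. Separate mice per library are not stated in the labels, and p-values therefore measure library-to-library spread. They also give no hour of tissue collection, and the library numbers run in sequence within each dose, so dose and hour of collection cannot be told apart for genes that cycle over the day.

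In the mammalian clock, BMAL1 (encoded by Arntl) pairs with CLOCK or NPAS2 and switches on genes that carry an E-box in their control regions. Among these genes are the cryptochromes and period genes, whose proteins repress the pair, and Nr1d1 and Nr1d2, whose proteins REV-ERBα and REV-ERBβ repress Arntl and its partners through sites built on the letters AGGTCA. In liver the clock times glucose, lipid and bile acid metabolism, and it follows feeding, glucocorticoid and temperature cues as well as the brain. Dbp, Ciart and Bhlhe40 are E-box genes: DBP activates output genes through D-boxes, and CIART and BHLHE40 (DEC1) repress the BMAL1 pair.

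The E-box could be read in the promoters of 2 of the genes, which are shown because one of them, Ciart, was the member with most copies of it and the other, Cry1, moved the opposite way at 3.5 g/L. RefSeq promoter windows (GRCm38.p6, 250 bases before to 50 bases after the start) were found for 9 of the 10 members in 12 windows. The E-box CACGTG, which reads the same on both strands, was in 7.15% of all 32851 windows, and 3 or more copies were in 0.0883% of them. The 250 bases upstream of the starts follow 5′ to 3′ on the gene's strand, with the E-boxes in capitals, at chr3:95882229-95882478 (minus strand) for Ciart and chr10:85185055-85185304 (minus strand) for Cry1.
Ciart: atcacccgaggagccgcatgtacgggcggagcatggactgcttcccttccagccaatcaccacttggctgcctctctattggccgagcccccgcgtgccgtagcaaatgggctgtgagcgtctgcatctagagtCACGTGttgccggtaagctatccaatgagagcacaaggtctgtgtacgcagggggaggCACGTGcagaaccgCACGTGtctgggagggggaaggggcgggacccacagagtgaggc
Cry1: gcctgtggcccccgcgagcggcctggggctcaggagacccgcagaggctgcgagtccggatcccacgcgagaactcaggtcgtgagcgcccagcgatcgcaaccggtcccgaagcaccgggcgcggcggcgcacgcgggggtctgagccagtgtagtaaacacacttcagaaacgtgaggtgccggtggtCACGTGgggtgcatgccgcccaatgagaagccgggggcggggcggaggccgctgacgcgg
Ciart held 3 E-boxes, beginning 116, 58 and 44 bases before the start, and Cry1 held 1, beginning 60 bases before it. The letters AGGTCA, on either strand, were in 16.3% of all windows and in 3 of the 12 member windows, 1 each of Arntl, Clock and Nr1d2. Other windows of Arntl and Clock did not carry them. Arntl carried the longer form TAGGTCA, found in 2.61% of windows and overlapping the shorter one, in gcagaaagTAGGTCAgggacgga (the longer form in capitals). It lay 30 bases after the transcription start of the window chr7:113207261-113207560, a later start than the gene start given below. The D-box letters TTACGTAA or TTATGTAA, on either strand, were in 1.06% of windows and in none of the 12. A match says nothing of binding.

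The values are RPKM (reads scaled to transcript length and to the mapped total), a level per length. Read totals were not in the table, but the steps between low values put the relative depth of the 24 libraries between 0.951 and 1.131. The whole reads behind the sparsest member, Ciart, could be recovered and numbered 1 to 162 per library. Pairs of libraries of 1 dose correlated across genes at r between 0.983 and 0.997. A tag in the library titles (L1 to L3, not explained there) was L1 in all controls, L1 in 3 and L2 in 3 libraries at 1 g/L, L2 at 2 g/L and L3 at 3.5 g/L, so tag and dose cannot be told apart at 3.5 g/L. Within 1 g/L no member passed limma's test between L2 and L1, and 1, Cry2, had an unadjusted p under 0.05 (log2 fold 0.37, adjusted p = 0.692). The L2 libraries were nonetheless higher on average in all 10 members, and did not overlap the L1 libraries for Arntl, Cry2 and Nr1d2. Other genes were not counted in this way, so neither count can be read as particular to the clock genes. Hepatocyte markers, 8 genes with Alb among them, summed to 19460 to 25300 RPKM at 3.5 g/L and to 24820 to 31630 RPKM in controls. Of the 3 cholangiocyte markers, Krt7 and Epcam were under 0.5 RPKM in every library, whereas Krt19 was not. The 3 summed to 0.90 to 1.45 RPKM at 3.5 g/L and to 0.54 to 1.12 RPKM in controls. The 7 Kupffer cell markers summed to 42.4 to 60.1 RPKM at 3.5 g/L, against 66.8 to 98.2 RPKM in controls, and the 6 red blood cell markers had medians of 722, 507.7, 385.1 and 341.2 RPKM at 0, 1, 2 and 3.5 g/L. The part of either in the results was not tested. In bulk liver, fewer cells of a type and less RNA per cell cannot be told apart.

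Dose by dose, the REV-ERB genes Nr1d1 and Nr1d2 rose at all 3 doses, Bhlhe40 fell at the lowest dose alone among the 3 comparisons with control, and Arntl, Npas2 and Cry1 fell at the highest dose. Folds were fitted with limma on log2(RPKM + 1) for 6540 genes with at least 0.5 RPKM in at least 6 libraries, with Benjamini-Hochberg adjustment over all of them and a threshold of 0.05, and adding 1 understates the folds of low genes. Ciart reached 0.5 RPKM in just 6 libraries and Dbp in 10, so that both were tested because of the doses at which they were high. At 1 g/L, 2 members rose and 1 fell, beside 11.4% of all tested genes called (8.35% higher, 3.03% lower). At 2 g/L, 3 members rose and none fell, where 51.9% of all genes were called, 41.9% higher and 10% lower. The upward lean of these shares at 1 and 2 g/L depended on the scaling. When libraries were rescaled by median ratios, the excess of higher over lower genes at 2 g/L was much smaller, and 2 members rose and 2 fell. At 1 g/L more genes were then called lower than higher. The same limit holds where these shares are set beside the gene lists below. At 3.5 g/L, 6 rose (Nr1d1, Nr1d2, Dbp, Ciart, Cry2, Clock) and 3 fell (Arntl, Npas2, Cry1), beside 51.5% of all genes, 38.6% higher and 12.9% lower. Scaling mattered here too. Median-ratio rescaling moved the median log2 fold of all genes at 3.5 g/L from 0.097 to 0.005, and Clock and Cry2 were then not called. Under quantile normalization Clock, Cry2 and Ciart were not called. Between 3.5 and 2 g/L, Nr1d1 rose and Arntl fell, where 10.3% of all genes were called (4.79% higher, 5.54% lower). Between 3.5 and 1 g/L 5 members rose and 3 fell, beside 33.9% of all genes (24.2% higher, 9.65% lower), and a straight line over dose called 6 upward and 3 downward, beside 50.6% (38% upward, 12.6% downward). Between 2 and 1 g/L 3 rose and 1 fell, beside 28.4% (22.7% higher, 5.63% lower). The median log2 fold of the members at 1, 2 and 3.5 g/L was 0.16, 0.06 and 0.33, beside 0.05, 0.12 and 0.10 over all tested genes.

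**Figure D1:**
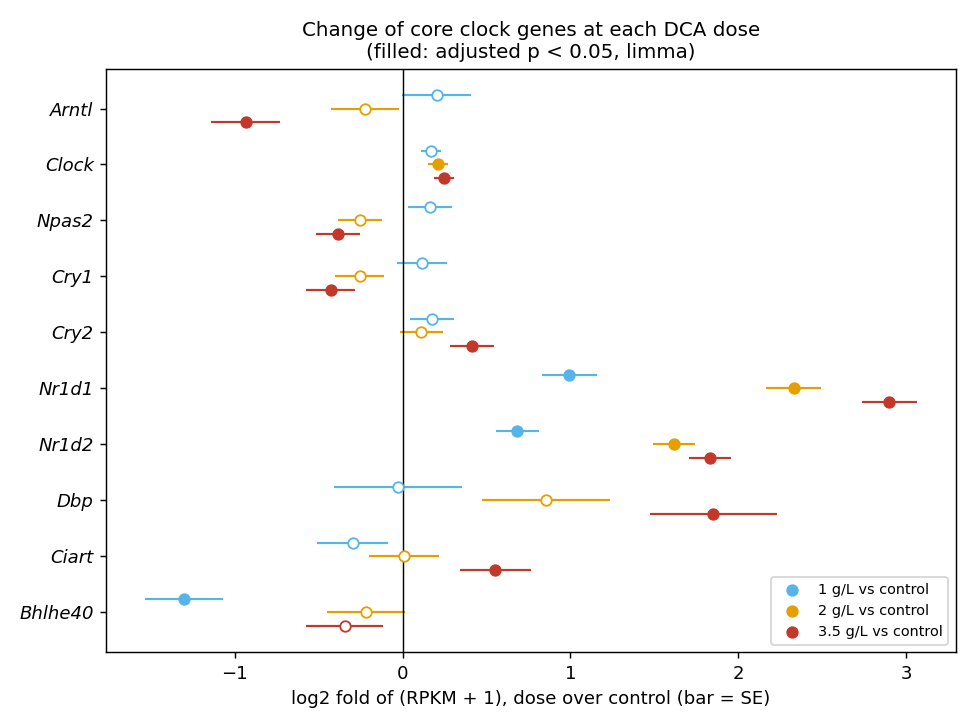
Log2 fold of (RPKM + 1) of each clock gene at 1, 2 and 3.5 g/L DCA over control, with bars for the standard error and filled points for adjusted p under 0.05 in limma. Nr1d1 and Nr1d2 are filled and to the right at all 3 doses (Nr1d1 at 0.99, 2.33 and 2.90), Bhlhe40 is filled at 1 g/L (-1.30), and Arntl is filled at 3.5 g/L (-0.94).

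Nr1d1, which encodes REV-ERBα (chr11:98767932-98775333, minus strand, GRCm38), rose at every dose and climbed with it. Its RPKM was lowest 1.05, median 1.6 and highest 2.17 in controls. At 1 g/L the same 3 figures were 3.22, 3.88 and 5.71, at 2 g/L 6.94, 12.1 and 17.8, and at 3.5 g/L 13.04, 17.3 and 25.04. No treated library overlapped the controls at any dose, and the medians were 2.43, 7.58 and 10.8 times the control median. Groups without overlap were seen in 4.62%, 23.3% and 27.9% of all tested genes at 1, 2 and 3.5 g/L (3.01%, 20.2% and 22% higher, and 1.61%, 3.1% and 5.86% lower). The log2 folds were 0.99 (SE 0.16, adjusted p = 0.000696), 2.33 (adjusted p = 4.07e-10) and 2.90 (adjusted p = 3.98e-12) in limma. Nr1d1 was also higher at 2 than at 1 g/L (1.34, adjusted p = 3.29e-06) and at 3.5 than at 2 g/L (0.57, adjusted p = 0.0279), and its slope was 0.85 log2 units per g/L (SE 0.06). The step from 2 to 3.5 g/L was lost in a fit to those doses alone, without the filter on low values, and without library 74, 75, 97 or 102. With the title tag as a term the fold at 1 g/L was 0.88 (adjusted p = 0.0294). Exons of Nr1d1 share 263 bases with the thyroid hormone receptor gene Thra on the other strand, which is not analysed here, and the sources used here do not say whether counting used strand.

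Nr1d2, which encodes the paralogue REV-ERBβ (chr14:18204054-18239127, minus strand), rose beside it by a smaller factor. In controls its RPKM was lowest 1.47, median 1.73 and highest 2.18. It stood at 2.91, 3.34 and 4.29 at 1 g/L, at 6.69, 7.24 and 9.37 at 2 g/L, and at 6.10, 9.15 and 12.7 at 3.5 g/L. Again each dose lay wholly above the controls, and the medians were 1.94, 4.19 and 5.30 times theirs. The log2 folds were 0.68 (SE 0.13, adjusted p = 0.00164), 1.62 (adjusted p = 1.78e-09) and 1.83 (adjusted p = 7.32e-11). Nr1d2 gained 0.93 at 2 over 1 g/L (adjusted p = 1.15e-05), whereas the 3.5 g/L libraries spread across the 2 g/L range (0.22, adjusted p = 0.301).

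Dbp, the D-box activator (chr7:45705088-45710203, plus strand), was near the bottom of the scale in controls and had the widest range at 3.5 g/L among the 10 genes. Its RPKM was lowest 0.156, median 0.216 and highest 0.312 in controls and 0.137, 0.203 and 0.254 at 1 g/L. These groups overlapped throughout, and the log2 fold at 1 g/L was -0.03 (SE 0.38, adjusted p = 0.970). At 2 g/L the lowest, median and highest values were 0.279, 1.25 and 2.55, with 1 library inside the control range and 5 above it. At 3.5 g/L they were 0.419, 3.96 and 14.6, all above the controls, and the median was 18.3 times theirs. The log2 fold was 0.86 at 2 g/L (adjusted p = 0.0626) and 1.85 at 3.5 g/L (SE 0.38, adjusted p = 0.000277). With 0.1 in place of 1 added to the RPKM, the 2 g/L fold was 1.89 and passed the test (adjusted p = 0.00802), and it passed without library 74, the lowest (1.01, adjusted p = 0.0356). Dbp exons share 539 bases with those of Sphk2, a sphingosine kinase gene on the other strand.

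Ciart, a repressor also called CHRONO (chr3:95878503-95882251, minus strand), was counted from few reads, and its medians at 1 and 3.5 g/L lay on opposite sides of the control median. In controls its RPKM was lowest 0.127, median 0.294 and highest 0.607, from 5 to 23 reads a library. At 1 g/L the figures were 0.0241, 0.0774 and 0.126, from 1 to 5 reads, and all 6 libraries lay below the controls, though the nearest pair rested on 5 reads each. The 2 g/L values, 0.178, 0.300 and 0.482, were inside the control range, and those at 3.5 g/L were 0.230, 0.754 and 3.96. The log2 folds at 1 and 3.5 g/L were -0.30 (SE 0.21, adjusted p = 0.367) and 0.55 (SE 0.21, adjusted p = 0.0312). The call at 3.5 g/L was lost without the filter on low values (adjusted p = 0.0616), and without library 100, the highest, the fold was 0.28 (adjusted p = 0.0618). It was also lost under quantile normalization, in a fit to control and 3.5 g/L alone (adjusted p = 0.107), and without library 4, 6, 8 or 102, with adjusted p between 0.0578 and 0.0624 in the last 4.

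Bhlhe40, the repressor DEC1 (chr6:108660629-108666925, plus strand), had its low point at the lowest dose. Its RPKM was lowest 5.63, median 11.96 and highest 14.5 in controls. At 1 g/L it was 3.06, 3.67 and 4.34, below every control. It was 6.45, 9.23 and 12.3 at 2 g/L and 4.51, 8.78 and 14.9 at 3.5 g/L, both overlapping the controls. The log2 fold was -1.30 at 1 g/L (SE 0.23, adjusted p = 0.00111), -0.22 at 2 g/L (adjusted p = 0.457) and -0.35 at 3.5 g/L (adjusted p = 0.219). The return was itself tested: Bhlhe40 was higher at 2 than at 1 g/L (1.09, adjusted p = 0.00129) and higher at 3.5 than at 1 g/L (0.96, adjusted p = 0.00238). A straight line over dose had a slope of 0.01 (adjusted p = 0.925), the only member with an adjusted p above 0.05 for slope. With the tag as a term, the fall at 1 g/L was -1.39 (adjusted p = 0.00614). RefSeq's promoter table had no Bhlhe40 entry, and 118 exon bases overlap an antisense transcript.

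**Figure D2:**
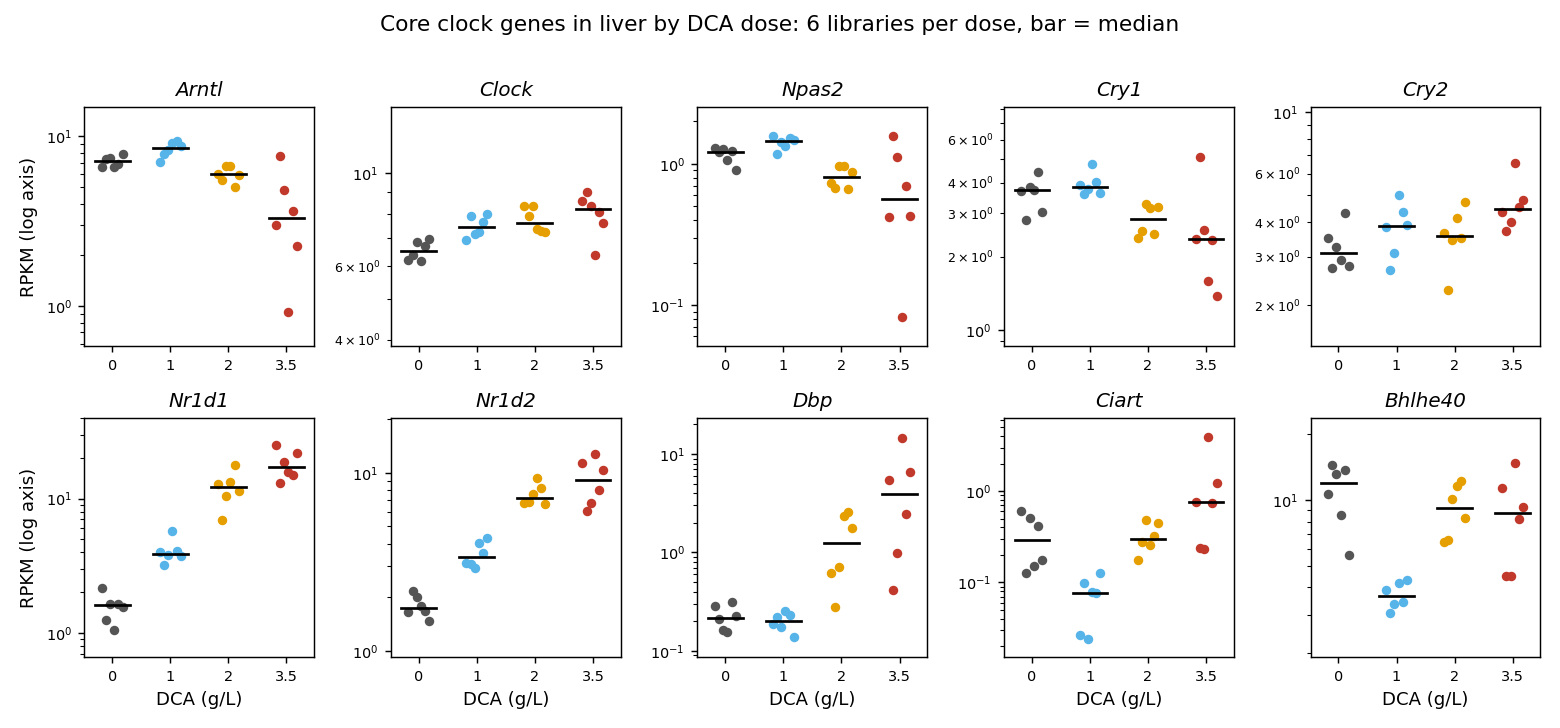
RPKM on a log axis of each clock gene in the 24 liver libraries by DCA dose (0, 1, 2 and 3.5 g/L), 6 points per dose, with a bar at the median. Nr1d1 and Nr1d2 step up with dose, Bhlhe40 dips at 1 g/L to a median of 3.67 RPKM, and at 3.5 g/L Arntl, Npas2, Dbp and Ciart fan out, Dbp between 0.419 and 14.6 RPKM.

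Arntl, the gene for BMAL1 (chr7:113207465-113314126, plus strand), was lower at 3.5 g/L on average, with a very wide spread. Its RPKM was lowest 6.55, median 7.14 and highest 7.86 in controls, and 7.03, 8.51 and 9.32 at 1 g/L. At 2 g/L it was 5.02, 5.95 and 6.72, and at 3.5 g/L 0.927, 3.32 and 7.67. At 3.5 g/L 5 libraries lay below all controls and library 98 lay among them. The log2 folds were 0.20 (SE 0.21, adjusted p = 0.542) at 1 g/L, -0.22 (adjusted p = 0.376) at 2 g/L and -0.94 (SE 0.21, adjusted p = 0.000542) at 3.5 g/L. Arntl was lower at 3.5 than at 2 g/L (-0.71, adjusted p = 0.0278) and lower than at 1 g/L (-1.14, adjusted p = 0.000122), and the first of these steps was lost in a fit to those doses alone, without the filter, and without library 75, 76, 100 or 102. At 2 g/L Arntl was also called lower with the tag as a term (-0.43, adjusted p = 0.0164) and in a fit to control and 2 g/L alone (adjusted p = 0.0157).

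The partners of BMAL1 went different ways. Npas2, the CLOCK paralogue (chr1:39193731-39363236, plus strand), had RPKM of lowest 0.903, median 1.22 and highest 1.30 in controls, 1.19, 1.45 and 1.58 at 1 g/L, 0.669, 0.807 and 0.967 at 2 g/L, and 0.0818, 0.565 and 1.59 at 3.5 g/L. Both upper doses overlapped the controls, through 2 libraries at 3.5 g/L of which library 98 exceeded them all. Its log2 fold was -0.39 at 3.5 g/L (SE 0.13, adjusted p = 0.0161), and without library 100, the lowest, it was -0.26 (adjusted p = 0.0528). In a fit to control and 3.5 g/L alone its adjusted p was 0.0646, and in one to control and 2 g/L alone its fall at 2 g/L passed (-0.26, adjusted p = 0.00506). The 2 g/L fall also passed with median-ratio rescaling (-0.34, adjusted p = 0.0403). Npas2 was also lower at 2 than at 1 g/L (-0.42, adjusted p = 0.0190).

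Clock itself (chr5:76209868-76304792, minus strand) had RPKM of lowest 6.18, median 6.53 and highest 6.97 in controls, 6.93, 7.44 and 8.00 at 1 g/L, 7.24, 7.62 and 8.37 at 2 g/L, and 6.39, 8.21 and 9.001 at 3.5 g/L. The 2 g/L libraries all lay above the controls. The log2 folds of 0.21 at 2 g/L (SE 0.06, adjusted p = 0.00511) and 0.25 at 3.5 g/L (adjusted p = 0.00134) passed the test, and the 1 g/L fold was 0.17 (adjusted p = 0.0706). Both calls depended on the scaling. When libraries were rescaled by median ratios, which moved the median fold of all genes at 2 g/L to 0.01, the Clock folds were 0.07 (adjusted p = 0.321) and 0.13 (adjusted p = 0.0721), and neither passed. With the tag as a term the 2 g/L fold was 0.16 and did not pass (adjusted p = 0.232).

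The cryptochromes, the main repressors of the BMAL1 pair, parted at the top dose. Cry1 (chr10:85131700-85185064, minus strand) had RPKM of lowest 2.81, median 3.72 and highest 4.45 in controls, 3.59, 3.84 and 4.80 at 1 g/L, 2.38, 2.85 and 3.28 at 2 g/L, and 1.38, 2.35 and 5.11 at 3.5 g/L. At 3.5 g/L 5 libraries lay below the control range and library 98 above it. The log2 fold there was -0.43 (SE 0.15, adjusted p = 0.0182), and the call was lost without library 100 (adjusted p = 0.0543) or library 102 (adjusted p = 0.0605) and in a fit to control and 3.5 g/L alone (adjusted p = 0.0634). Cry2 (chr2:92403646-92434043, minus strand) had RPKM of lowest 2.72, median 3.08 and highest 4.31 in controls, 2.69, 3.87 and 5.03 at 1 g/L, 2.27, 3.57 and 4.74 at 2 g/L, and 3.73, 4.45 and 6.56 at 3.5 g/L. All doses overlapped the controls. Its log2 fold at 3.5 g/L was 0.41 (SE 0.13, adjusted p = 0.0110), and with median-ratio rescaling the adjusted p was 0.0541. Cry2 shares 295 exon bases with a noncoding transcript on the other strand. Neither gene was called at 1 or 2 g/L. Cry1 at 2 g/L was called lower with median-ratio rescaling (-0.38, adjusted p = 0.0412) and in a fit to control and 2 g/L alone (-0.26, adjusted p = 0.0350).

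The order of the levels, which RPKM allows to be compared between genes per length, was not the same at the ends of the dose range. At 3.5 g/L it ran, by mean, Nr1d1, Nr1d2, Bhlhe40, Clock, Dbp, Cry2, Arntl, Cry1, Ciart and Npas2, and only Nr1d1 stood clear of its neighbour. In controls it ran, by mean, Bhlhe40, Arntl, Clock, Cry1, Cry2, Nr1d2, Nr1d1, Npas2, Ciart and Dbp. Neighbours in the control order did not overlap between Clock and Cry1, between Cry2 and Nr1d2 and between Npas2 and Ciart, and the other neighbours overlapped.

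The 3.5 g/L libraries differed among themselves more in clock genes than in most genes. The SD of log2(RPKM + 1) at 3.5 g/L was 1.29 for Dbp, the 4th largest of 6540 genes, 0.74 for Ciart (22nd), 0.74 for Arntl (23rd) and 0.62 for Bhlhe40 (41st), against a median of 0.11 over all genes. In controls, by the same measure, Dbp was 5463rd and Arntl 4641st, whereas Bhlhe40 was 124th and Ciart 843rd. Adding 1 also compresses the spread of genes as low as Dbp was in controls. The spread was not confined to the top dose: at 2 g/L Dbp was 69th (SD 0.61), Nr1d1 232nd and Bhlhe40 322nd. Nor was it equal among members at 3.5 g/L, where Cry2 was 567th and Clock 1639th (SD 0.15). For libraries 97 to 102 in turn, Arntl was 3.00, 7.67, 4.80, 0.927, 3.65 and 2.26 RPKM. Dbp was 5.48, 0.419, 0.988, 14.6, 2.44 and 6.58 RPKM in the same 6 libraries. The orders of the 2 genes were exact opposites, with library 98 highest in Arntl and lowest in Dbp, and library 100 the other way round. Library 98 was also highest in Clock, Npas2 and Cry1 and lowest in Cry2, Nr1d1 and Nr1d2. Library 100 was also lowest in Clock and Npas2 and highest in Cry2, Ciart, Bhlhe40 and Nr1d2.

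**Figure D3:**
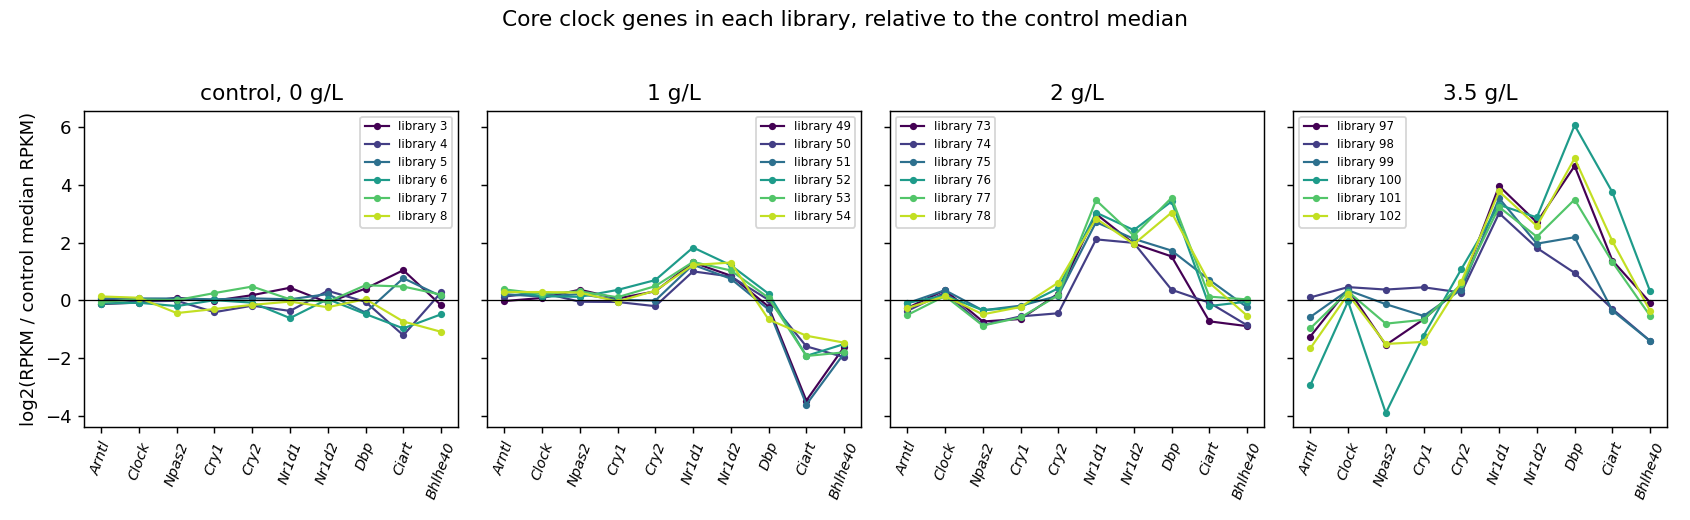
Log2 ratio of RPKM to the control median for the 10 clock genes (x axis), 1 line per library, in panels for 0, 1, 2 and 3.5 g/L DCA. The lines spread at 3.5 g/L, where Arntl lies between 0.927 and 7.67 RPKM and all 6 lines rise at Nr1d1.

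A single difference per library describes how far it leaned to one side. Arntl, Clock, Npas2 and Cry1 were grouped as genes driven through REV-ERB sites, although Cry1 also carries an E-box. Dbp, Ciart, Bhlhe40, Nr1d1 and Nr1d2 were grouped as E-box genes. Among them only Ciart had CACGTG in its promoter window, and Bhlhe40 had no window. Cry2 was in neither group. Subtracting the mean log2 level of the first group from that of the second gave -1.09 to -0.77 in controls, -1.12 to -0.96 at 1 g/L, -0.19 to 0.64 at 2 g/L, and -0.62 (library 98) to 2.29 (library 100) at 3.5 g/L. Every library at 2 and 3.5 g/L was above every control and every 1 g/L library. This difference is built from values that already differed by dose and was not tested.

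**Figure D4:**
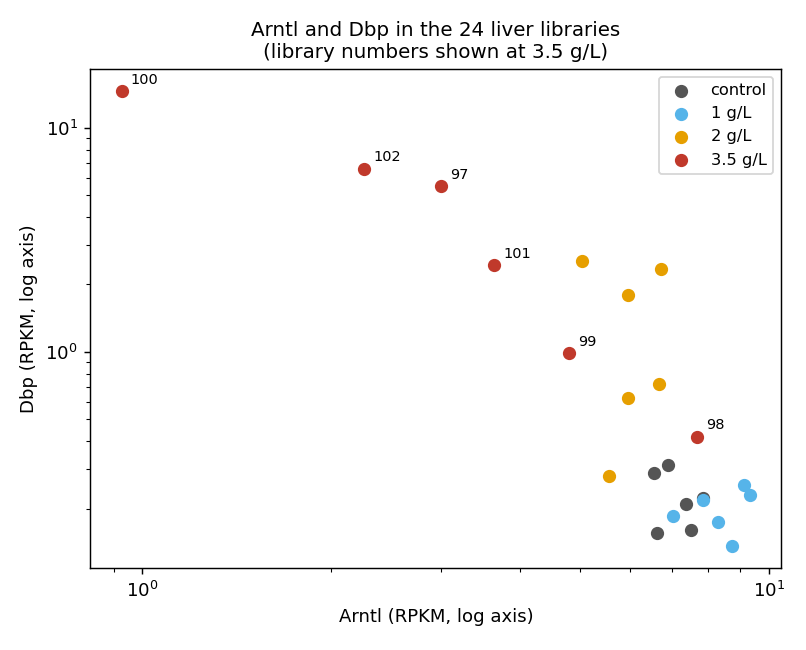
Arntl (x axis) against Dbp (y axis) in RPKM on log axes, 1 point per library, coloured by dose with library numbers at 3.5 g/L. The 3.5 g/L points run from library 98 (Arntl 7.67, Dbp 0.419) to library 100 (Arntl 0.927, Dbp 14.6), and the control and 1 g/L points sit together at the lower right.

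Relations between the genes were measured over libraries within doses. Within 3.5 g/L (6 libraries), 24 of the 45 pairs passed an exact two-sided permutation test of Pearson's r after adjustment over the 45, 12 positive and 12 negative. Arntl and Dbp had r = -0.98 (exact p = 0.00139, adjusted p = 0.0167; Spearman's rho -1, exact p = 0.00278, adjusted p = 0.05) and -0.97 without libraries 98 and 100, the 2 farthest in Arntl. Arntl and Npas2 had r = 0.98 (exact p = 0.00556, adjusted p = 0.0167; rho 0.94, exact p = 0.0167, adjusted p = 0.05) and 0.93 without the same 2. By rho no pair was under the threshold, since the smallest adjusted p was 0.05. Nr1d1, the gene with the clearest rise over dose, was in none of the 24 pairs: its r was -0.33 with Arntl (exact p = 0.526, adjusted p = 0.564; rho -0.49, exact p = 0.356, adjusted p = 0.4) and 0.54 with its paralogue Nr1d2 (exact p = 0.265, adjusted p = 0.314; rho 0.54, exact p = 0.297, adjusted p = 0.352). The median size of r over the 45 pairs was 0.354, 0.419, 0.378 and 0.856 at 0, 1, 2 and 3.5 g/L, and 4, 4, 6 and 29 pairs exceeded 0.8 in size. Pairs of other genes were not counted in the same way, so these counts cannot be read as particular to the clock genes.

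Over all 24 libraries, each centred on its dose, 18 of 45 pairs passed a permutation test within doses (100000 resamples, adjusted over the 45) by r, but 4 passed by rho. Here too, pairs of other genes were not counted. Much of this rested on the top dose. The relation of Arntl and Dbp was r = -0.85 (permutation p = 0.00255, adjusted p = 0.0129; rho -0.50, permutation p = 0.0525, adjusted p = 0.148), -0.59 without libraries 98 and 100, and -0.05 without the 3.5 g/L libraries. Bhlhe40 and Nr1d2, both E-box genes, kept theirs: r was 0.85 and rho 0.84 (permutation p = 1e-05 for both, the smallest that 100000 resamples can give, adjusted p = 0.00045), and r was 0.85 without the 2 farthest libraries (8 and 99). Within the doses their r was 0.74, 0.79, 0.84 and 0.97 at 0, 1, 2 and 3.5 g/L, and it was 0.70 over the 18 libraries below 3.5 g/L. Without library 98, 99 or 100 the number of pairs called by r was 6, 9 or 9 in place of 18.

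**Figure D5:**
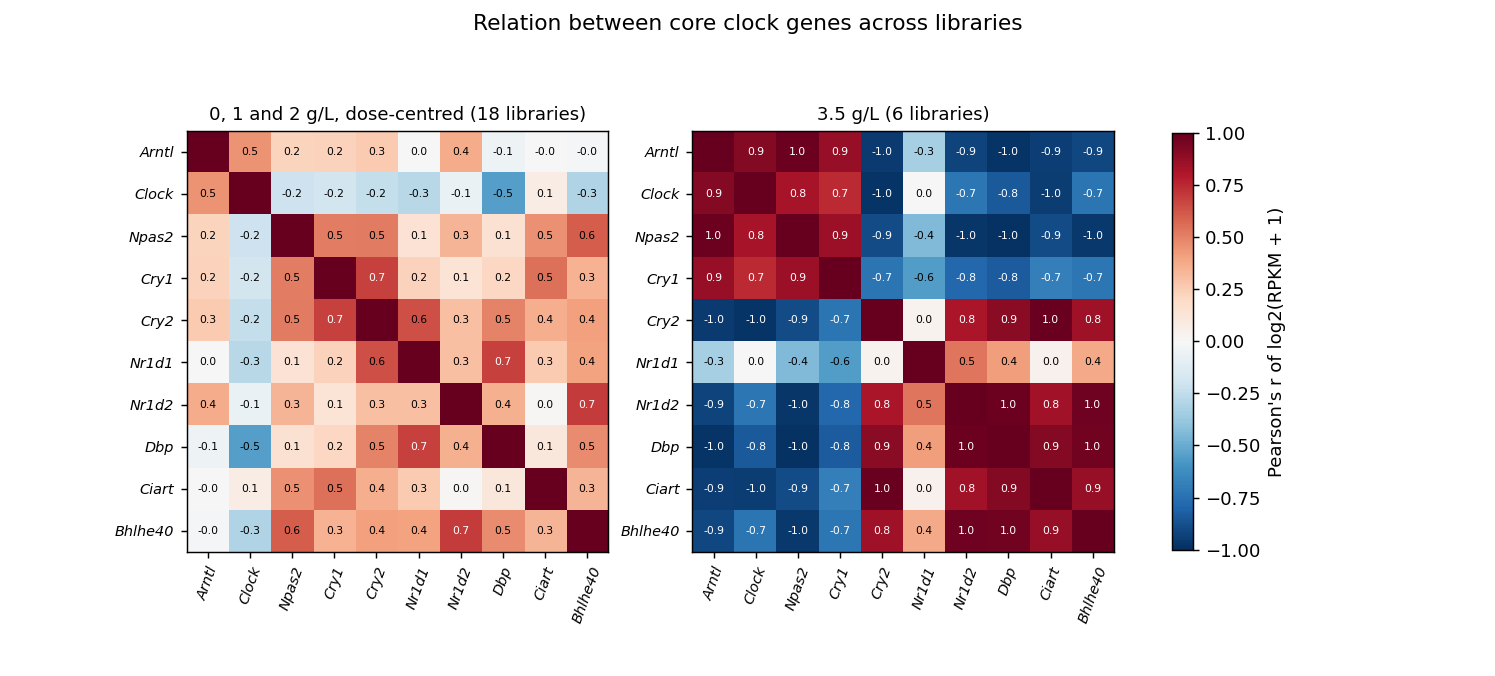
Pearson's r of log2(RPKM + 1) between the clock genes, colour and number, over the 18 libraries at 0, 1 and 2 g/L centred on their dose (left) and over the 6 libraries at 3.5 g/L (right). On the right a block of Arntl, Clock, Npas2 and Cry1 stands against Cry2, Nr1d2, Dbp, Ciart and Bhlhe40 with Nr1d1 pale, and on the left most values are weaker (Arntl with Dbp -0.05, Bhlhe40 with Nr1d2 0.70).

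Outside the members, the genes most like 4 of them were ranked by dose-centred r over the 24 libraries among 5401 genes with a mean of at least 1 RPKM, as a description. Nearest to Arntl were Chka (r = 0.84), Clpx (0.84) and Map4k4 (0.83), and farthest Coq10b (-0.73), Apoa1 (-0.71) and Epb4.1l4b (-0.70). Chka, which encodes choline kinase alpha, had r = 0.98 within 3.5 g/L but -0.08 without that dose. Nearest to Nr1d1 were Coasy (0.75), Klhl21 (0.71) and Gmpr2 (0.70), and Coasy, an enzyme of coenzyme A synthesis, kept 0.73 without 3.5 g/L. Nearest to Dbp were Gcn1l1 (0.72), Hsd3b5 (0.72) and Il15ra (0.69). Nearest to Bhlhe40 were Car14 (0.82), Klhl21 (0.78) and Hsd3b3 (0.77), and Car14, a carbonic anhydrase gene, kept 0.80 without 3.5 g/L.

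Of 23 other clock components listed, 12 were in the table and 10 were tested; the period and ROR genes and Tef are not analysed here. At 1, 2 and 3.5 g/L, 1, 3 and 5 of the 10 rose and 0, 2 and 2 fell, beside 8.35%, 41.9% and 38.6% of all tested genes higher and 3.03%, 10% and 12.9% lower, with a median log2 fold of 0.02, 0.04 and 0.09. Nfil3 encodes E4BP4, which represses through the same D-boxes that DBP activates. Its RPKM was lowest 4.86, median 5.91 and highest 8.39 at 2 g/L and 2.62, 4.43 and 8.49 at 3.5 g/L, against 12.1, 12.9 and 13.7 in controls, without overlap at either dose. The log2 folds were -0.94 at 2 g/L (SE 0.17, adjusted p = 9.50e-05) and -1.33 at 3.5 g/L (adjusted p = 8.59e-07). Hlf, a relative of Dbp that activates through D-boxes and was picked after its values were seen, was 3.34, 4.02 and 6.18 RPKM at 3.5 g/L, against 1.99, 2.92 and 3.28 RPKM in controls, again without overlap (log2 fold 0.49, SE 0.11, adjusted p = 0.000483). Gsk3b, a kinase that phosphorylates clock proteins, rose by 0.18, 0.33 and 0.47 at the 3 doses (adjusted p = 0.0246, 1.38e-05 and 6.82e-08). Fbxw11, a ubiquitin ligase subunit, rose by 0.28 and 0.32 at 2 and 3.5 g/L (adjusted p = 0.000568 and 0.000116). Fbxl21, a ligase subunit that acts on cryptochromes, had folds of -0.28 and -0.38 there (adjusted p = 0.00364 and 0.000216). Its highest value was 0.487 RPKM at 2 g/L and 0.365 RPKM at 3.5 g/L, both under the filter level. Fbxl21 was therefore tested because of the control and 1 g/L libraries, where it was higher. Cipc also rose at 2 and 3.5 g/L and Csnk1e at 3.5 g/L.

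Of 19 liver genes known to be under clock control, 15 were tested, and 1, 6 and 7 of them rose and 3, 2 and 3 fell at 1, 2 and 3.5 g/L, beside those same shares of all genes (41.9% and 38.6% higher at 2 and 3.5 g/L). Elovl3, a fatty acid elongase known as a REV-ERBα-repressed gene in mouse liver, was 28.8, 76.6 and 89.6 RPKM (lowest, median, highest) at 2 g/L and 14.8, 31.4 and 57.6 at 3.5 g/L, against 168.3, 220.5 and 259.4 in controls. It fell by 1.66 and 2.69 log2 units (adjusted p = 1.03e-05 and 6.54e-09) with no overlap. Cyp7a1, the rate-limiting enzyme of bile acid synthesis, was 6.27, 10.2 and 20.6 RPKM at 2 g/L and 3.80, 7.21 and 17.2 RPKM at 3.5 g/L, against 2.27, 2.92 and 4.54 RPKM in controls, with overlap at 3.5 g/L. Its log2 folds were 1.5 (adjusted p = 0.000485) and 1.03 (adjusted p = 0.0100). Lpin1, a phosphatidate phosphatase, fell by 2.52, 2.79 and 2.56 log2 units at the 3 doses (adjusted p = 1.79e-08, 3.40e-10 and 2.64e-10). Cyp2a4, a steroid hydroxylase gene known as a DBP output in mouse liver, rose by 1.99 at 2 g/L and 4.79 at 3.5 g/L (adjusted p = 2.74e-05 and 4.32e-11), a value that is uncertain because Cyp2a5 is nearly identical. Its median was 0.34 RPKM in controls and 0.23 RPKM at 1 g/L, both under the filter level, against 4.29 and 32.03 RPKM at 2 and 3.5 g/L. Cyp2a4 was therefore tested because of the doses at which it was high. The median log2 fold of the 15 was -0.03, -0.003 and 0.47.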

How the data were processed

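The deposited table gives RPKM per gene and library, made by the authors. STAR 2.4, CASAVA and Partek are listed in the submitters' processing notes with the mm10 build, without their roles, and no total read counts were given, so depth was read as relative depth from the steps of low values (tolerance 0.1 reads). The table as used here ends within the letter O of the gene symbols, and later genes are not analysed here. From it 13 lines with dates for symbols and 1 incomplete line were dropped, which left 15582 genes. Columns were matched to libraries by title. Folds were fitted with limma 3.58.1 in R 4.3.3 (trend, 4 dose means, 24 libraries, 20 residual degrees of freedom) on log2(RPKM + 1) for genes of 0.5 RPKM or more in at least 6 libraries, and checked on simulated data. Alternatives changed the pseudocount (0.1, 0.5), the filter, the scaling, the libraries and the title tag. The members and lists were chosen with earlier results of these data known: all members were described, likeness was the 3 highest r (for Arntl also the 3 lowest), and up to 4 genes of each list were named by size of fold at 2 g/L. Other listed genes were picked after their values were seen. Gene positions are from GENCODE M21 (GRCm38) and promoters from RefSeq (GRCm38.p6).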

Additional observations from a re-analysis of the deposited data

How the results depend on the processing

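No paired analysis was possible because the groups share no replicate numbers. Over the alternatives for single members, 929 kept direction and call, 22 gained a call, 20 lost one and 13 changed direction; those 13 were all in folds of Cry2 or Ciart that were not called. Cry2 was at -0.0126 at 1 g/L with the title tag as a term and in libraries tagged L1 alone, and at 2 g/L it was -0.00907 with median-ratio factors, -0.0289 with quantile normalization and -0.26 with the tag. Ciart at 2 g/L was -0.0324, -0.0528 and -0.0519 under the same 3, and between -0.0366 and 0.0658 when single libraries were left out (below 0 without control 4, 6 or 8 or 2 g/L library 75 or 78). In a fit to the libraries of the doses compared alone, 5 members were called at 1 g/L in place of 3, 7 at 2 g/L in place of 3, 8 between 2 and 1 g/L in place of 4 (7 with the tag as a term), and 0 between 3.5 and 2 g/L in place of 2, with 3 at unadjusted p under 0.05. The spread shared by the doses includes the wide 3.5 g/L libraries. Without the filter on low values, 0 members were called between 3.5 and 2 g/L, with 5 at unadjusted p under 0.05.

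Leaving out each library gave 3 to 4 members called at 1 g/L, 3 to 6 at 2 g/L, 6 to 9 at 3.5 g/L, 4 to 7 between 2 and 1 g/L, 8 to 9 between 3.5 and 1 g/L and for slope, and 0 to 5 between 3.5 and 2 g/L. The last was 0 without 2 g/L library 75 or 3.5 g/L library 102 (limma, 5 and 4 at unadjusted p under 0.05), 1 without 74, 76, 97 or 100, and 5 without 98; without 98 the count was 6 at 2 g/L and 7 between 2 and 1 g/L. Pairs called over 24 libraries were 4 by Spearman's rho in place of 18, and 6 to 24 when each library was left out. Over all genes, 744 calls at 1 g/L became 92 with the tag and 50 in libraries tagged L1. At 2 g/L 3395 calls became 864 with the tag. Without single libraries, 456 to 971 of the 6540 genes were called at 1 g/L, 3050 to 3411 at 2 g/L and 3140 to 3396 at 3.5 g/L. Values of Ciart at 1 g/L rest on 1 to 5 reads a library.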

Other observations

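Genes that carry feeding, glucocorticoid and temperature cues to the liver clock were tested as a further list, 16 of 19 being in the table. At 1, 2 and 3.5 g/L, 0, 2 and 3 of the 16 rose and 4, 3 and 5 fell, beside 8.35%, 41.9% and 38.6% of all tested genes higher and 3.03%, 10% and 12.9% lower. The median log2 fold of the 16 was -0.18, -0.20 and 0.00. The heat shock gene Hspa1b fell by 1.64, 2.37 and 1.52 log2 units, and Hspa1a by 1.00, 0.87 and 0.93, values that are uncertain because the 2 genes are nearly identical. The highest Hspa1a value was 0.359 RPKM at 1 g/L and 0.482 RPKM at 3.5 g/L, both under the filter level. Hspa1a was therefore tested because of the controls, where its median was 1.297 RPKM. Igfbp1, an insulin-repressed binding protein for insulin-like growth factors, rose at 3.5 g/L (2.01, adjusted p = 0.000297 in limma), with folds of 1.13 (adjusted p = 0.0776) and 0.78 (adjusted p = 0.119) at 1 and 2 g/L. The metallothionein gene Mt2 fell at 3.5 g/L (-2.14, adjusted p = 0.0267), and its RPKM ran between 0.0615 and 4.23 there, against 3.39 and 38.1 in controls, with overlap.

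Other genes of the list were picked after their values were seen. The temperature genes did not fall as a group. Hsp90aa1 rose at 2 g/L (0.47, adjusted p = 0.0188 in limma), and Hspa8, Hsph1, Hsf1 and Cirbp were called at none of the doses against control. Among the listed genes that glucocorticoids induce, Fkbp5, a co-chaperone, fell at all 3 doses without overlap with controls (-1.08, -0.75 and -0.59, adjusted p = 1.96e-05, 6.24e-05 and 0.000657), whereas Klf9, a transcription factor, was at -0.15, -0.05 and -0.08 (adjusted p = 0.421, 0.730 and 0.560). Mt1 was called at none of the doses, with adjusted p of 0.109, 0.770 and 0.235. Dusp1, also on the list, fell at 3.5 g/L (-0.71, adjusted p = 0.00693 in limma). At 1 and 2 g/L Dusp1 was not called (-0.21 and -0.39, adjusted p = 0.539 and 0.121). Of the fasting-induced genes, Fgf21 rose at 2 and 3.5 g/L (0.37 and 0.63, adjusted p = 0.00392 and 1.54e-05 in limma). Its highest value was 0.4494 RPKM in controls and 0.4662 RPKM at 1 g/L, both under the filter level. Fgf21 was therefore tested because of the doses at which it was high, where its medians were 0.5975 and 0.8881 RPKM. Irs2, also on the list, was called at none of the doses against control (0.12, -0.35 and 0.16). Angptl4, a lipoprotein lipase inhibitor, fell at 1 g/L (-0.67, adjusted p = 0.0389) and rose at 3.5 g/L (1.28, adjusted p = 1.86e-05). The relation of these genes to the clock genes was not tested.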
